A study of Mus musculus with 22 samples.

Results

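The genes described here are 42 genes of the endoplasmic reticulum (ER) that fold, modify, import and discard secretory and membrane proteins, together with the sensors and transcription factors of the unfolded protein response. They were taken by name from the deposited expression table. All 42 were among its 13594 gene identifiers, and all 42 passed the filter on low values (above 1 CPM, the library-scaled read count, in at least 3 libraries), as did 13586 genes in all. RNA was sequenced in bulk from haematopoietic stem cells (HSCs), the rare marrow cells that renew the blood. They had been sorted as Kit-positive, Sca-1-positive, lineage-negative cells (KSL) without CD48 and with CD150. The donors were mice lacking Cd53 (KO), a gene for a tetraspanin of leukocyte membranes, and wild-type (WT) littermates. The mice had received saline or granulocyte colony-stimulating factor (G-CSF), a growth factor for neutrophils that also mobilizes stem cells out of the marrow, for 7 days. Bone marrow (BM) was sampled from WT mice after saline (4 libraries) and after G-CSF (3), and from KO mice after saline (3) and after G-CSF (4). Spleen was sampled after G-CSF from WT (4) and KO mice (4). Spleens after saline were not analysed here. The labels do not say how the Cd53 allele was made, the age of the mice, or whether libraries came from separate animals, so p-values measure the spread between these libraries.

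Proteins destined for the membrane or for export enter the ER through the Sec61 channel, where the signal peptidase removes their leader and the oligosaccharyltransferase adds sugar chains. Chaperones such as BiP (encoded by Hspa5) and the disulphide isomerases fold them, and chains that fail to fold are pulled back to the cytosol and degraded by the proteasome, a route called ER-associated degradation. When unfolded chains accumulate, the sensors IRE1 (Ern1), ATF6 and PERK (Eif2ak3) start the unfolded protein response. IRE1 splices the Xbp1 message into that of an active transcription factor, ATF6 is cleaved into one, and PERK slows translation while favouring that of Atf4, which in turn raises Ddit3 (CHOP). Blood stem cells are known for a low rate of protein synthesis and for sensitivity to unfolded protein. Splicing of Xbp1, cleavage of ATF6 and phosphorylation of PERK are not visible in a table of gene levels.

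Many genes of this response carry the ER stress response element in their promoter, bound by ATF6 with NF-Y, so the element is shown here for members whose levels are described further on. The RefSeq promoter table (build GRCm38.p6, 250 bases before to 50 after each gene's start) held 33 of the 42 genes. The element was searched on both strands as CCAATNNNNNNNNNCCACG and was found in 9 of the 33 (27.3%), against 19 of the 10284 tested genes with a promoter in the table (0.185%) and 0.119% of all 32851 promoters. The 9, which are also counted in the 19, were Calr, Canx, Creld2, Derl3, Dnajc3, Hsp90b1, Hspa5, Pdia6 and Syvn1. Shares of the tested genes, here and below, include the members. A shorter variant, ERSE-II, whose letters are those in capitals for Herpud1 with any base at the sixth place, was found in Dnajb11 and Herpud1, 2 of 33 against 0.0778% of the tested genes. In the stretches below, written 5′ to 3′ on the gene's strand, capitals mark the element, which in Creld2 and Calr is read on the opposite strand.
Hspa5, chr2:34772015-34772053, plus strand: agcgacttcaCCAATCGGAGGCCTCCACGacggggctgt
Pdia6, chr12:17266481-17266519, plus strand: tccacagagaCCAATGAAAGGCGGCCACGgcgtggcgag
Dnajc3, chr14:118937817-118937855, plus strand: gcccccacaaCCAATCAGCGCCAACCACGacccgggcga
Creld2, chr15:88819510-88819548, plus strand: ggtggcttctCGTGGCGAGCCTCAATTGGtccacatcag
Canx, chr11:50325790-50325828, minus strand: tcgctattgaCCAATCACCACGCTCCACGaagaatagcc
Calr, chr8:84847065-84847103, minus strand: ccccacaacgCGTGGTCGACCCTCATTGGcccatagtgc
Syvn1, chr19:6046522-6046560, plus strand: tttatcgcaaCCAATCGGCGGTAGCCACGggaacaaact
Herpud1, chr8:94386367-94386397, plus strand: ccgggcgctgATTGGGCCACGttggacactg
The core ACGTGG, which XBP1 and other factors bind, was present in 10 of 33 members (30.3%) against 13.4% of the tested genes. The longer TGACGTGG, which contains that core, was present in 1 member, Txndc5, or 3.03% against 1.03%. The amino acid response element TGATGNAAN, bound by ATF4 complexes, was present in Herpud1 and Txndc5, or 6.06% against 2.71%. A match describes these letters in this window and is no evidence of binding. The genes were listed as known members of the response, so these shares are not independent evidence. In WT marrow after G-CSF, 3 of the 9 members with the element rose at an adjusted p under 0.05 (limma), with a median log2 fold change of 0.33. Of the 24 members with a promoter and no such element 7 rose (median 0.37). Among 10 other tested genes with the element 0 rose and 2 fell. Over all genes 5.62% rose and 5.62% fell. A part of the element in these changes was not tested.

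Recovered reads ran from 22578088 to 31268856 per library, and 1 read was worth 0.0306 to 0.0465 CPM. Apart from Derl3, each of the 42 genes had at least 44 reads in every library. Derl3 had between 0 and 73 reads, a library without a read allowing a level of up to 0.0918 to 0.139 CPM (3 reads; counting error only), and its values are not interpreted. Levels are log2 CPM and are not divided by gene length, so they are compared between libraries of 1 gene and not between genes. In each setting the KO libraries all had less Cd53 than any WT library. It lay at 2.02 to 3.61 log2 CPM in KO and 5.75 to 6.18 in WT after saline, at 6.06 to 6.59 and 9.57 to 9.83 in marrow after G-CSF, and at 6.18 to 6.40 and 9.51 to 9.77 in spleen. The two-sided exact permutation test gave p = 0.0571, 0.0571 and 0.0286, the smallest these designs allow. All 10 HSC markers and all 4 gate genes were in the table, and transcripts that define B and plasma cells (Cd79a, Ms4a1, Jchain, Igkc) and T cells (Cd3e) were not among its genes.

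After G-CSF, WT marrow HSCs carried more RNA of the ER folding and import machinery. Of the 42 genes, 16 rose and 0 fell at an adjusted p under 0.05 (limma, Benjamini-Hochberg over all genes tested), where 5.62% of all genes rose and 5.62% fell (764 each). With libraries rescaled to the sum of the listed genes these were 556 rising and 1047 falling genes, and 12 members rising. The median log2 fold change was 0.38 over the 42 genes and -0.01 over all genes tested, and 37 of 42 had a positive sign. In 20 of the 42 every G-CSF library lay above every saline library, which 11.2% of all genes did. The genes that rose were the chaperones Hspa5, Manf and Hsp90b1, the co-chaperone Dnajb9, the disulphide isomerases Pdia4, Erp29, Pdia6 and P4hb, the transcription factor Xbp1, the translocon genes Sec61a1, Ssr3, Ssr2 and Sec61b, and Spcs2, Ostc and Spcs3 of the signal peptidase and oligosaccharyltransferase. By role this was 3 of 8 lumenal chaperones, 1 of 4 J-domain co-chaperones, 4 of 6 disulphide isomerases, 0 of 3 sensors, 1 of 3 transcription factors, 0 of 7 degradation genes, 4 of 7 translocon genes and 3 of 4 signal peptidase and oligosaccharyl transfer genes. In bulk RNA, fewer cells of a type and less RNA per cell cannot be told apart.

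The 3 WT marrow libraries after G-CSF were not alike. Centred on each gene's mean over the 22 libraries, the average of the 42 genes lay at 0.52, 0.16 and 0.38 log2 units in WT G-CSF replicates 1, 2 and 3. It lay at -0.29, -0.08, -0.09 and 0.15 in the 4 WT saline libraries. KO marrow averaged -0.19, -0.16 and 0.05 after saline and 0.19, 0.05, 0.08 and -0.09 after G-CSF. WT G-CSF replicate 1 was thus the highest of all libraries and replicate 2 the lowest of its group. The averages include Derl3, which had 0 reads in WT G-CSF replicate 2 (-5.70 log2 CPM) and so lowered the average of that library. Spleens ran from -0.23 to 0.05 in WT and from -0.21 to 0.06 in KO. Without WT G-CSF replicate 3, 9 of the 42 genes rose in WT marrow instead of 16, and the other omissions left 11 to 19. Over all genes 474 rose without that library instead of 764.

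**Figure D1:**
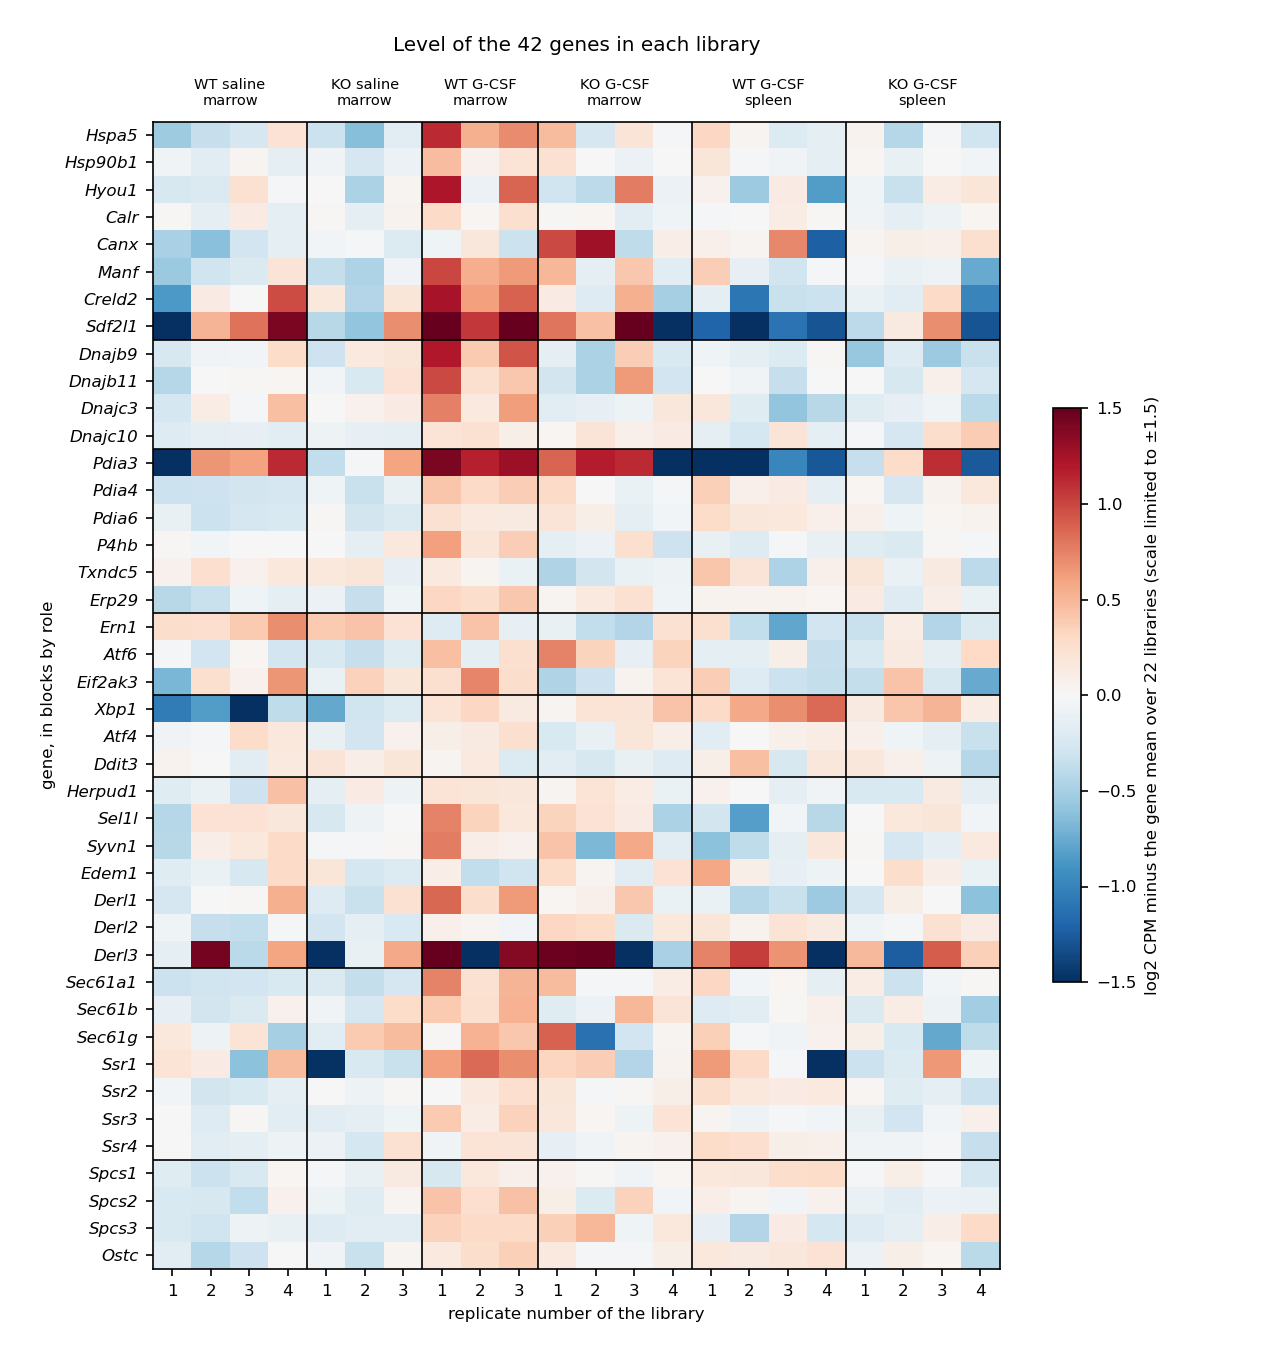
Level of each of the 42 genes (rows, in blocks by role) in each of the 22 libraries (columns, by group), as log2 CPM minus the gene's mean over all libraries, with colours limited to ±1.5. The WT marrow libraries after G-CSF are the reddest block, and Pdia3, Sdf2l1 and Derl3 swing more than other rows between libraries of 1 group.

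Hspa5 encodes BiP, the main Hsp70 chaperone of the ER lumen, which also holds the stress sensors inactive (ENSMUSG00000026864, chr2:34771970-34777547 on the plus strand, build mm10). Hspa5 lay at 9.58, 9.77, 9.86 and 10.33 log2 CPM in the 4 WT saline marrow libraries and at 11.23, 10.65 and 10.83 in the 3 WT marrow libraries after G-CSF. KO marrow gave Hspa5 values of 9.79, 9.48 and 9.96 after saline and 10.59, 9.86, 10.31 and 10.10 after G-CSF. In spleen, Hspa5 lay at 10.43, 10.16, 9.92 and 9.99 in WT and at 10.17, 9.69, 10.09 and 9.82 in KO. All WT G-CSF marrow libraries lay above all WT saline libraries, a log2 fold change of 1.02 ± 0.18 (adjusted p = 0.000664), or 2.02-fold, while the KO groups overlapped at 0.47 ± 0.18 (adjusted p = 0.113). Manf, a secreted stress factor that binds BiP, followed the same order of groups in WT. Manf measured 5.97, 6.23, 6.32 and 6.72 log2 CPM in WT saline marrow and 7.53, 7.07 and 7.17 in WT marrow after G-CSF. The Manf levels of KO marrow were 6.18, 6.06 and 6.48 after saline and 7.03, 6.39, 6.94 and 6.36 after G-CSF. Spleen values of Manf were 6.89, 6.40, 6.23 and 6.51 in WT and 6.5, 6.43, 6.45 and 5.77 in KO. The WT marrow groups did not overlap and differed by 0.95 ± 0.21 (adjusted p = 0.00366); the KO change was 0.44 ± 0.21 (adjusted p = 0.193). Hsp90b1, the ER-resident Hsp90, also rose in WT marrow, by 0.33 ± 0.10 (adjusted p = 0.0342), with levels of 8.21 to 8.92 over all libraries. Its call was lost in 5 of 7 omissions of a library (adjusted p = 0.0565 to 0.212), and 9 of the 16 calls, those of Dnajb9, Erp29, Hspa5, Manf, Pdia4, Pdia6, Sec61a1, Spcs2 and Xbp1, were kept in all 7.

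Hyou1 is a large Hsp70-like partner of BiP, and Creld2 and Sdf2l1 are small lumenal proteins, the latter a subunit of BiP complexes. Hyou1 measured 4.26, 4.28, 4.72 and 4.47 log2 CPM in WT saline marrow and 5.71, 4.40 and 5.37 in WT marrow after G-CSF. The Hyou1 levels of KO marrow were 4.49, 4.02 and 4.54 after saline and 4.20, 4.10, 5.26 and 4.41 after G-CSF. Spleen values of Hyou1 were 4.55, 3.95, 4.62 and 3.66 in WT and 4.44, 4.16, 4.60 and 4.67 in KO. WT G-CSF replicate 2 sat among the saline values, and the change of 0.73 ± 0.29 (adjusted p = 0.11) did not pass in WT, except without replicate 2 (adjusted p = 0.0179). Creld2 lay at 3.54, 4.53, 4.41 and 5.39 log2 CPM in the 4 WT saline marrow libraries and at 5.65, 5.03 and 5.29 in the 3 WT marrow libraries after G-CSF. KO marrow gave Creld2 values of 4.56, 3.97 and 4.59 after saline and 4.53, 4.21, 4.95 and 3.91 after G-CSF. In spleen, Creld2 lay at 4.26, 3.33, 4.08 and 4.08 in WT and at 4.31, 4.25, 4.69 and 3.42 in KO. Saline replicate 4 overlapped the G-CSF libraries in WT, the change being 0.85 ± 0.34 (adjusted p = 0.117), and it passed without that library (adjusted p = 0.0238). Sdf2l1 had log2 CPM values of 1.92, 4.26, 4.55 and 5.16 in WT saline marrow, and of 5.59, 4.80 and 5.25 after G-CSF. For Sdf2l1 in KO marrow the saline libraries gave 3.33, 3.15 and 4.43 and the G-CSF libraries 4.55, 4.19, 5.23 and 1.95. WT spleens held Sdf2l1 at 2.54, 2.19, 2.64 and 2.45, and KO spleens held it at 3.35, 3.88, 4.43 and 2.45. Sdf2l1 was low in WT saline replicate 1, in KO G-CSF marrow replicate 4, in all WT spleens and in 1 KO spleen, and its WT marrow change of 1.25 ± 0.64 (adjusted p = 0.243) lay within that spread. The lectin chaperones calreticulin and calnexin did not pass: Calr, at 9.11 to 9.56 in all libraries, changed by 0.22 ± 0.08 (adjusted p = 0.102) in WT marrow, and Canx, at 8.63 to 11.12, by 0.32 ± 0.33 (adjusted p = 0.607). Without WT G-CSF replicate 2, Calr reached adjusted p = 0.0472.

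The J-domain co-chaperones hand clients to BiP and drive its ATPase. Dnajb9 (ERdj4) binds BiP and the IRE1 sensor and is a known target of XBP1 (ENSMUSG00000014905, chr12:44205559-44210326 on the minus strand). Dnajb9 lay at 4.24, 4.43, 4.43 and 4.75 log2 CPM in the 4 WT saline marrow libraries and at 5.67, 4.87 and 5.42 in the 3 WT marrow libraries after G-CSF. KO marrow gave Dnajb9 values of 4.17, 4.62 and 4.66 after saline and 4.34, 4.0, 4.84 and 4.25 after G-CSF. In spleen, Dnajb9 lay at 4.40, 4.34, 4.27 and 4.5 in WT and at 3.90, 4.28, 3.93 and 4.14 in KO. The WT G-CSF marrow libraries lay above all the WT saline libraries and above every other library of the study, with a change of 0.86 ± 0.20 (adjusted p = 0.00536). The KO marrow groups overlapped, at -0.13 ± 0.20 (adjusted p = 0.75). Dnajb11 measured 5.22, 5.64, 5.67 and 5.67 log2 CPM in WT saline marrow and 6.63, 5.89 and 6.05 in WT marrow after G-CSF. The Dnajb11 levels of KO marrow were 5.61, 5.42 and 5.86 after saline and 5.37, 5.18, 6.29 and 5.36 after G-CSF. Spleen values of Dnajb11 were 5.66, 5.59, 5.30 and 5.64 in WT and 5.64, 5.41, 5.72 and 5.39 in KO. Dnajb11 (ERdj3), a cofactor for unfolded chains, did not overlap between the WT marrow groups but stopped short of the threshold at 0.64 ± 0.21 (adjusted p = 0.0504), and passed without WT G-CSF replicate 2 (adjusted p = 0.0383). Dnajc3 had log2 CPM values of 4.77, 5.15, 5.01 and 5.48 in WT saline marrow, and of 5.79, 5.19 and 5.66 after G-CSF. For Dnajc3 in KO marrow the saline libraries gave 5.03, 5.10 and 5.15 and the G-CSF libraries 4.86, 4.91, 4.96 and 5.20. WT spleens held Dnajc3 at 5.21, 4.85, 4.45 and 4.61, and KO spleens held it at 4.85, 4.91, 4.98 and 4.63. Dnajc3 (p58IPK), a co-chaperone first known as an inhibitor of PERK, changed by 0.44 ± 0.18 (adjusted p = 0.117) in WT marrow with overlapping groups. It passed without WT saline replicate 4 or WT G-CSF replicate 2 (adjusted p = 0.0437 to 0.0444). Dnajc10, an ER reductase, ranged from 6.86 to 7.5 and did not pass in WT (0.33 ± 0.12) or KO marrow (0.22 ± 0.12).

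**Figure D2:**
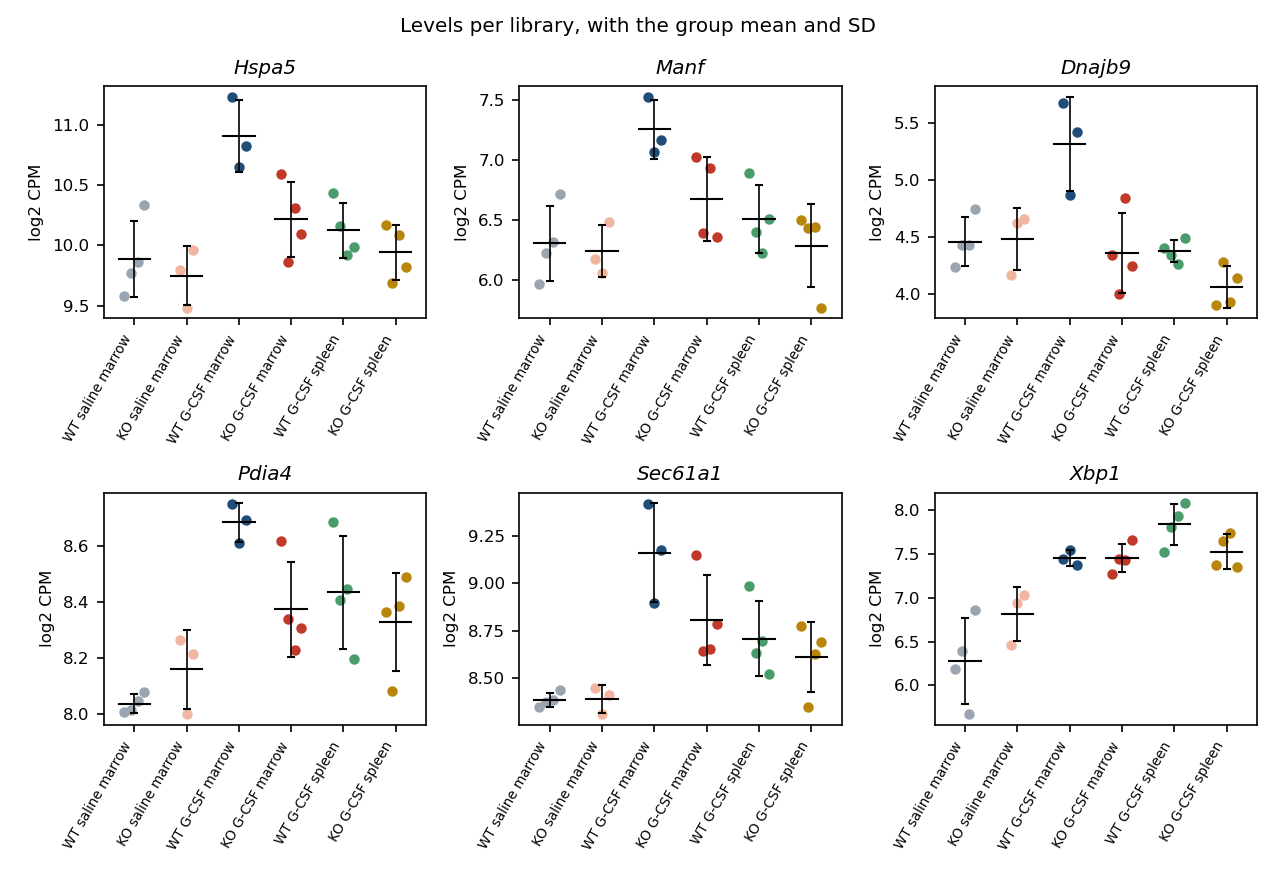
Log2 CPM of Hspa5, Manf, Dnajb9, Pdia4, Sec61a1 and Xbp1 in every library (points), by group, with the group mean (line) and SD (bar). The 3 WT marrow libraries after G-CSF lie above the 4 WT saline libraries in all 6 panels, and Xbp1 is the panel in which the spleens lie beside that group or above it.

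Of the disulphide isomerases, which form and shuffle disulphide bonds, 4 of 6 rose in WT marrow. Pdia4 measured 8.0, 8.01, 8.05 and 8.08 log2 CPM in WT saline marrow and 8.75, 8.61 and 8.69 in WT marrow after G-CSF. The Pdia4 levels of KO marrow were 8.26, 8.0 and 8.21 after saline and 8.62, 8.34, 8.23 and 8.30 after G-CSF. Spleen values of Pdia4 were 8.69, 8.41, 8.45 and 8.19 in WT and 8.36, 8.08, 8.38 and 8.49 in KO. The WT saline values of Pdia4 lay close together and all G-CSF values above them, a change of 0.65 ± 0.11 (adjusted p = 0.000386) against 0.21 ± 0.11 (adjusted p = 0.246) in KO. Erp29 lay at 6.48, 6.56, 6.82 and 6.76 log2 CPM in the 4 WT saline marrow libraries and at 7.20, 7.15 and 7.30 in the 3 WT marrow libraries after G-CSF. KO marrow gave Erp29 values of 6.80, 6.55 and 6.82 after saline and 6.92, 7.04, 7.11 and 6.82 after G-CSF. In spleen, Erp29 lay at 6.94, 6.94, 6.94 and 6.92 in WT and at 7.02, 6.70, 6.99 and 6.79 in KO. Erp29, a redox-inactive relative of the family, changed by 0.56 ± 0.10 (adjusted p = 0.000838) in WT without overlap and by 0.25 ± 0.10 (adjusted p = 0.129) in KO. Its exons share 1586 bases with those of Naa25 on the other strand, and whether reads were counted by strand is not given in the sources used here; 14 of the 42 genes share exon bases with another annotated gene. Pdia6 had log2 CPM values of 9.40, 9.19, 9.27 and 9.28 in WT saline marrow, and of 9.74, 9.66 and 9.65 after G-CSF. For Pdia6 in KO marrow the saline libraries gave 9.53, 9.23 and 9.29 and the G-CSF libraries 9.70, 9.60, 9.38 and 9.47. WT spleens held Pdia6 at 9.79, 9.68, 9.67 and 9.59, and KO spleens held it at 9.59, 9.44, 9.55 and 9.57. Pdia6, which also tempers IRE1 signalling, changed by 0.40 ± 0.09 (adjusted p = 0.0031) in WT, again without overlap, and by 0.19 ± 0.09 (adjusted p = 0.173) in KO; with quantile normalization its adjusted p in WT was 0.0573. P4hb measured 8.74, 8.69, 8.73 and 8.73 log2 CPM in WT saline marrow and 9.34, 8.91 and 9.10 in WT marrow after G-CSF. The P4hb levels of KO marrow were 8.73, 8.60 and 8.89 after saline and 8.59, 8.64, 8.97 and 8.42 after G-CSF. Spleen values of P4hb were 8.62, 8.54, 8.71 and 8.62 in WT and 8.55, 8.51, 8.75 and 8.70 in KO. P4hb, the founding disulphide isomerase, rose by 0.40 ± 0.11 (adjusted p = 0.0224) in WT and changed by -0.09 ± 0.11 (adjusted p = 0.69) in KO. In WT, P4hb missed the threshold when WT saline replicate 2 or WT G-CSF replicate 1 or 3 was left out (adjusted p = 0.0561 to 0.148). Txndc5, at 5.26 to 6.14 in all libraries, changed by -0.10 ± 0.17 in WT and -0.30 ± 0.17 in KO.

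Pdia3 (ERp57), the isomerase that works with calreticulin and calnexin, swung between libraries of the same group (ENSMUSG00000027248, chr2:121413775-121438687 on the plus strand). Pdia3 lay at 6.73, 9.14, 9.08 and 9.60 log2 CPM in the 4 WT saline marrow libraries and at 9.89, 9.65 and 9.77 in the 3 WT marrow libraries after G-CSF. KO marrow gave Pdia3 values of 8.11, 8.46 and 9.08 after saline and 9.35, 9.66, 9.59 and 6.88 after G-CSF. In spleen, Pdia3 lay at 6.91, 6.25, 7.5 and 7.20 in WT and at 8.14, 8.76, 9.59 and 7.22 in KO. WT saline replicate 1, KO G-CSF marrow replicate 4, KO spleen replicate 4 and all 4 WT spleens lay at 7.5 or below, and all other libraries at 8.11 or above. The whole range was 3.63 log2 units, or 12.4-fold, and the WT marrow change of 1.13 ± 0.62 (adjusted p = 0.276) did not pass.

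None of the 3 sensors rose in WT marrow. Ern1 encodes IRE1, the kinase and nuclease that splices Xbp1. Ern1 measured 5.01, 5.01, 5.14 and 5.45 log2 CPM in WT saline marrow and 4.56, 5.17 and 4.63 in WT marrow after G-CSF. The Ern1 levels of KO marrow were 5.14, 5.18 and 4.97 after saline and 4.64, 4.38, 4.31 and 4.98 after G-CSF. Spleen values of Ern1 were 5.0, 4.39, 3.98 and 4.47 in WT and 4.42, 4.86, 4.32 and 4.53 in KO. Ern1 changed by -0.36 ± 0.21 (adjusted p = 0.3) in WT marrow, where the groups overlapped, and by -0.52 ± 0.21 (adjusted p = 0.118) in KO marrow. Atf6 had log2 CPM values of 5.15, 4.88, 5.20 and 4.88 in WT saline marrow, and of 5.63, 5.03 and 5.41 after G-CSF. For Atf6 in KO marrow the saline libraries gave 4.94, 4.82 and 4.99 and the G-CSF libraries 5.92, 5.51, 5.04 and 5.5. WT spleens held Atf6 at 5.03, 5.02, 5.26 and 4.83, and KO spleens held it at 4.94, 5.30, 5.03 and 5.46. Atf6, the sensor that becomes a transcription factor on cleavage, rose in KO marrow by 0.58 ± 0.18 (adjusted p = 0.0394), without overlap, and changed by 0.33 ± 0.18 (adjusted p = 0.264) in WT. The KO call was lost in 6 of 7 omissions, at adjusted p = 0.0634 to 0.138, and was kept without KO G-CSF marrow replicate 3. Eif2ak3 lay at 2.58, 3.51, 3.33 and 3.93 log2 CPM in the 4 WT saline marrow libraries and at 3.51, 4.0 and 3.54 in the 3 WT marrow libraries after G-CSF. KO marrow gave Eif2ak3 values of 3.17, 3.62 and 3.45 after saline and 2.83, 2.96, 3.33 and 3.48 after G-CSF. In spleen, Eif2ak3 lay at 3.64, 3.08, 2.95 and 2.91 in WT and at 2.91, 3.70, 3.03 and 2.51 in KO. Eif2ak3 (PERK) had overlapping groups in each genotype, with changes of 0.34 ± 0.29 (adjusted p = 0.507) in WT and -0.27 ± 0.29 (adjusted p = 0.623) in KO.

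Xbp1, whose spliced form drives chaperone, degradation and secretory genes, had the smallest p of the 42 in WT marrow (ENSMUSG00000020484, chr11:5520659-5525893 on the plus strand). Xbp1 measured 6.19, 6.39, 5.67 and 6.85 log2 CPM in WT saline marrow and 7.44, 7.54 and 7.37 in WT marrow after G-CSF. The Xbp1 levels of KO marrow were 6.47, 6.94 and 7.03 after saline and 7.27, 7.44, 7.43 and 7.66 after G-CSF. Spleen values of Xbp1 were 7.52, 7.81, 7.94 and 8.08 in WT and 7.37, 7.64, 7.74 and 7.35 in KO. Both genotypes had every G-CSF marrow library above every saline library, with rises of 1.17 ± 0.19 (adjusted p = 0.000229) in WT and 0.64 ± 0.19 (adjusted p = 0.0371) in KO. In WT the rise was kept in each omission; in KO it was lost without KO saline replicate 1 or 2 or KO G-CSF marrow replicate 2 or 4 (adjusted p = 0.0596 to 0.21). Xbp1 in spleen lay beside or above marrow after G-CSF in both genotypes. Atf4 lay at 6.63, 6.66, 6.95 and 6.83 log2 CPM in the 4 WT saline marrow libraries and at 6.76, 6.81 and 6.92 in the 3 WT marrow libraries after G-CSF. KO marrow gave Atf4 values of 6.57, 6.40 and 6.74 after saline and 6.45, 6.57, 6.86 and 6.78 after G-CSF. In spleen, Atf4 lay at 6.52, 6.67, 6.76 and 6.79 in WT and at 6.76, 6.61, 6.54 and 6.35 in KO. Atf4, the effector of PERK, is controlled largely at translation, and its message changed by 0.06 ± 0.12 (adjusted p = 0.815) in WT and 0.09 ± 0.12 (adjusted p = 0.686) in KO. Ddit3 had log2 CPM values of 5.15, 5.09, 4.94 and 5.24 in WT saline marrow, and of 5.14, 5.24 and 4.90 after G-CSF. For Ddit3 in KO marrow the saline libraries gave 5.29, 5.20 and 5.27 and the G-CSF libraries 4.94, 4.86, 4.99 and 4.91. WT spleens held Ddit3 at 5.18, 5.54, 4.85 and 5.26, and KO spleens held it at 5.27, 5.17, 5.02 and 4.66. Ddit3 (CHOP), a target of ATF4 tied to cell death under stress, changed by -0.01 ± 0.15 (adjusted p = 0.97) in WT. In KO all 4 G-CSF libraries lay below all 3 saline libraries, but the change of -0.33 ± 0.15 (adjusted p = 0.173) did not pass.

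The degradation genes did not pass in marrow of either genotype. Sel1l is the adaptor of the HRD1 ubiquitin ligase, and Derl1 is a pore-like protein of the same complex. Sel1l measured 6.33, 6.97, 6.97 and 6.93 log2 CPM in WT saline marrow and 7.5, 7.09 and 6.92 in WT marrow after G-CSF. The Sel1l levels of KO marrow were 6.52, 6.68 and 6.76 after saline and 7.09, 6.97, 6.89 and 6.28 after G-CSF. Spleen values of Sel1l were 6.48, 5.93, 6.72 and 6.34 in WT and 6.77, 6.92, 6.94 and 6.72 in KO. In WT marrow Sel1l changed by 0.37 ± 0.19 (adjusted p = 0.243) with overlapping groups. Derl1 had log2 CPM values of 5.13, 5.37, 5.39 and 5.91 in WT saline marrow, and of 6.23, 5.64 and 6.01 after G-CSF. For Derl1 in KO marrow the saline libraries gave 5.18, 5.05 and 5.60 and the G-CSF libraries 5.40, 5.45, 5.78 and 5.27. WT spleens held Derl1 at 5.27, 4.95, 5.04 and 4.83, and KO spleens held it at 5.12, 5.47, 5.38 and 4.76. Derl1 changed by 0.51 ± 0.19 (adjusted p = 0.0993) in WT marrow, WT saline replicate 4 lying within the G-CSF range, and passed without that replicate (adjusted p = 0.0293). Herpud1, a stress-induced scaffold of the complex, ranged from 8.0 to 8.75 and changed by 0.22 ± 0.13 in WT and 0.09 ± 0.13 in KO; in WT it passed without saline replicate 4 (adjusted p = 0.0197). Syvn1, the ligase HRD1 itself (4.56 to 6.01), changed by 0.28 ± 0.24 and 0.05 ± 0.24. Edem1, a lectin that picks glycoproteins for disposal (3.94 to 4.88), changed by -0.13 ± 0.18 and 0.19 ± 0.18, and Derl2, a relative of Derl1 (7.0 to 7.68), by 0.23 ± 0.11 and 0.35 ± 0.11. In KO marrow Derl2 stood at adjusted p = 0.054, and at adjusted p = 0.00367 without KO G-CSF marrow replicate 3. Derl3, at -5.70 to 1.43, is given for completeness.

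Sec61a1 forms the pore of the Sec61 channel (ENSMUSG00000030082, chr6:88503579-88518905 on the minus strand). Sec61a1 lay at 8.35, 8.37, 8.39 and 8.44 log2 CPM in the 4 WT saline marrow libraries and at 9.42, 8.89 and 9.18 in the 3 WT marrow libraries after G-CSF. KO marrow gave Sec61a1 values of 8.45, 8.31 and 8.41 after saline and 9.15, 8.65, 8.65 and 8.79 after G-CSF. In spleen, Sec61a1 lay at 8.98, 8.63, 8.70 and 8.52 in WT and at 8.78, 8.35, 8.63 and 8.69 in KO. In both genotypes all G-CSF marrow libraries lay above all saline libraries, with rises of 0.77 ± 0.13 (adjusted p = 0.000305) in WT and 0.42 ± 0.13 (adjusted p = 0.0444) in KO. The KO call was lost in 5 of 7 omissions (adjusted p = 0.0634 to 0.155), those of any KO saline library and of KO G-CSF marrow replicates 1 and 4. Ssr3 had log2 CPM values of 8.33, 8.14, 8.36 and 8.17 in WT saline marrow, and of 8.73, 8.44 and 8.68 after G-CSF. For Ssr3 in KO marrow the saline libraries gave 8.18, 8.19 and 8.27 and the G-CSF libraries 8.51, 8.36, 8.27 and 8.54. WT spleens held Ssr3 at 8.38, 8.26, 8.32 and 8.30, and KO spleens held it at 8.22, 8.05, 8.30 and 8.41. Ssr3, a subunit of the TRAP complex beside the channel, rose by 0.37 ± 0.09 (adjusted p = 0.0121) in WT and changed by 0.21 ± 0.09 (adjusted p = 0.176) in KO, and its WT call was lost without WT G-CSF replicate 1 or 3 (adjusted p = 0.0629 to 0.0696). Ssr2 of the same complex (7.78 to 8.36) rose by 0.31 ± 0.09 (adjusted p = 0.0247) in WT, and the channel subunit Sec61b (4.63 to 5.67) by 0.52 ± 0.17 (adjusted p = 0.043). Both were lost in omissions, Ssr2 in 4 of 7 (WT saline replicates 2 and 3, WT G-CSF replicates 2 and 3; adjusted p = 0.0616 to 0.145) and Sec61b in 6 of 7, all but WT saline replicate 4 (adjusted p = 0.0545 to 0.169). The other translocon members did not pass in WT marrow: Ssr1 at 0.67 ± 0.38, Ssr4 at 0.20 ± 0.11 and Sec61g, which lay at 0.87 to 2.87 over all libraries, at 0.37 ± 0.34.

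The signal peptidase subunits Spcs2 and Spcs3 and the oligosaccharyltransferase subunit Ostc rose in WT marrow. Spcs2 measured 8.5, 8.49, 8.35 and 8.78 log2 CPM in WT saline marrow and 9.15, 8.97 and 9.17 in WT marrow after G-CSF. The Spcs2 levels of KO marrow were 8.64, 8.54 and 8.76 after saline and 8.81, 8.52, 9.07 and 8.68 after G-CSF. Spleen values of Spcs2 were 8.82, 8.76, 8.68 and 8.79 in WT and 8.63, 8.55, 8.63 and 8.62 in KO. Spcs2 changed by 0.57 ± 0.11 (adjusted p = 0.00105) in WT without overlap and by 0.12 ± 0.11 (adjusted p = 0.526) in KO. Spcs3 lay at 8.18, 8.11, 8.34 and 8.31 log2 CPM in the 4 WT saline marrow libraries and at 8.76, 8.70 and 8.70 in the 3 WT marrow libraries after G-CSF. KO marrow gave Spcs3 values of 8.22, 8.24 and 8.25 after saline and 8.77, 8.91, 8.34 and 8.58 after G-CSF. In spleen, Spcs3 lay at 8.29, 7.97, 8.54 and 8.15 in WT and at 8.22, 8.28, 8.51 and 8.70 in KO. Spcs3 was higher after G-CSF in every WT and every KO marrow library and rose by 0.48 ± 0.13 (adjusted p = 0.0176) in WT and 0.41 ± 0.13 (adjusted p = 0.0481) in KO. In WT, Spcs3 missed the threshold when WT saline replicate 2 or WT G-CSF replicate 1 or 3 was left out (adjusted p = 0.0517 to 0.0604). In KO its call was lost in 6 of 7 omissions, all but that of KO G-CSF marrow replicate 3 (adjusted p = 0.0558 to 0.159). Ostc had log2 CPM values of 7.33, 7.08, 7.20 and 7.51 in WT saline marrow, and of 7.65, 7.77 and 7.86 after G-CSF. For Ostc in KO marrow the saline libraries gave 7.45, 7.18 and 7.54 and the G-CSF libraries 7.65, 7.48, 7.49 and 7.59. WT spleens held Ostc at 7.66, 7.64, 7.67 and 7.72, and KO spleens held it at 7.42, 7.60, 7.53 and 7.10. Ostc rose by 0.48 ± 0.12 (adjusted p = 0.00789) in WT, a call lost without WT G-CSF replicate 3 (adjusted p = 0.0509), and changed by 0.16 ± 0.12 (adjusted p = 0.414) in KO. Spcs1 (7.17 to 7.77) changed by 0.18 ± 0.10 in WT and 0.02 ± 0.10 in KO.

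In KO marrow after G-CSF, 4 of the 42 genes rose and 0 fell: Xbp1, Atf6, Sec61a1 and Spcs3. Among all genes 5.57% rose and 4.3% fell (757 and 584; 588 and 799 when rescaled to the listed genes, with 0 members called). The median was 0.16 over the 42 genes against -0.01 over all genes, and 32 of 42 had a positive sign. In 6 members every G-CSF library lay above every saline library and in 1, Ddit3, below, which 8.8% and 8.84% of all genes did. The count of 4 became 0 without KO saline replicate 1 or 2 or KO G-CSF marrow replicate 4, 1 without KO saline replicate 3 or KO G-CSF marrow replicate 1 or 2, and 0 without a variance trend. It was 1 with the compared groups alone or quantile normalization and 2 with voom weights. That a gene passed in WT and not in KO does not show a difference between them, and the test of that difference is given with the interactions.

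**Figure D3:**
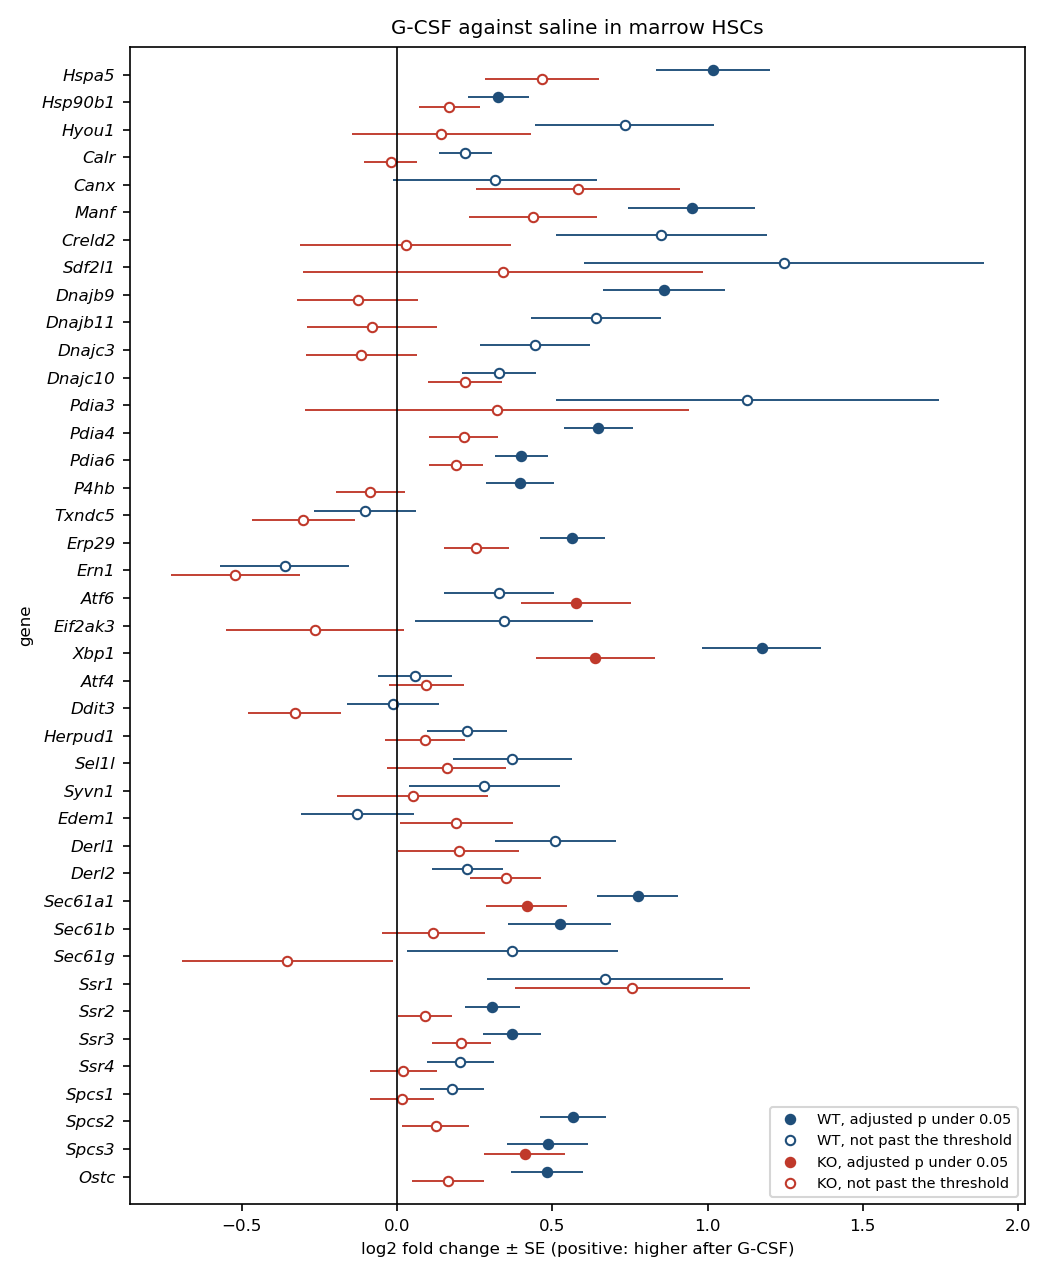
Log2 fold change ± SE of G-CSF against saline in marrow HSCs for 41 genes (Derl3 is left out for its wide error), in WT (blue) and KO (red); filled points have an adjusted p under 0.05. Of the WT points 16 are filled, all to the right of 0, and of the KO points 4, also to the right.

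Lists of neighbouring pathways were read in the same comparison. They were drawn up with earlier results of these data known and are described by counts, to be read against the 5.62% of all genes that rose and the 5.62% that fell. Of 23 tested genes of signal recognition and ER targeting, 6 rose and 0 fell in WT marrow, with Srp68, a subunit of the signal recognition particle, at 0.55 ± 0.09 (adjusted p = 0.000386), the tail-anchor targeting ATPase Asna1 at 0.53 ± 0.14 (adjusted p = 0.015) and the receptor subunit Srpr at 0.37 ± 0.10 (adjusted p = 0.0176). Of 25 further genes of oligosaccharide assembly and transfer 6 rose, led by the catalytic subunit Stt3a (0.53 ± 0.10, adjusted p = 0.000992), Rpn2 (0.33 ± 0.08, adjusted p = 0.00533) and the mannosyltransferase Alg3 (0.57 ± 0.13, adjusted p = 0.00661). Of 24 genes of vesicle exit from the ER 5 rose, among them the cargo receptors Surf4 (0.64 ± 0.13, adjusted p = 0.00247) and Tmed10 (0.51 ± 0.11, adjusted p = 0.00399) and the coat subunit Sec23b (0.61 ± 0.14, adjusted p = 0.00603). The cytosolic heat shock list had 3 of 24 rising, Cct5 (0.28 ± 0.07, adjusted p = 0.0143), Stip1 (0.35 ± 0.10, adjusted p = 0.0224) and Tcp1 (0.31 ± 0.09, adjusted p = 0.0326), which belong to the cytosolic chaperonin and the Hsp90 machinery.

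Among 40 other folding and redox genes 1 rose, a smaller share than over all genes, the translocation cofactor Sec63 (0.47 ± 0.14, adjusted p = 0.0384), and among 23 other degradation genes 1 rose, Selenos, an adaptor of the degradation complex (1.11 ± 0.19, adjusted p = 0.000467), and 1 fell, Fam8a1 (-0.81 ± 0.20, adjusted p = 0.011). Of 23 tested targets of PERK and ATF4 3 rose, the lipoprotein receptor Vldlr (4.61 ± 0.13, adjusted p = 1.99e-17), asparagine synthetase Asns (0.57 ± 0.13, adjusted p = 0.00765) and the asparaginyl-tRNA synthetase Nars (0.36 ± 0.10, adjusted p = 0.0296). The 1 that fell, Ppp1r15a, the phosphatase subunit that ends the PERK response (-0.65 ± 0.20, adjusted p = 0.0365), was named after its values were seen. Vldlr, Selenos, Srp68, Stt3a, Rpn2, Alg3, Surf4, Tmed10 and Sec23b kept their call in all 7 omissions. The other 9 genes named by rule lost it in 1 to 5 omissions, at adjusted p = 0.0535 to 0.224. With 1 library left out, the number of genes past the threshold in WT marrow was 1 to 5 instead of 6 for signal recognition and targeting, 0 to 2 instead of 3 for heat shock and 2 to 3 instead of 4 for PERK and ATF4. It was 4 to 8 (6) for oligosaccharide transfer, 4 to 6 (5) for ER exit, 2 in each omission (2) for other degradation genes and 0 to 1 (1) for folding and redox genes. In KO marrow the 7 lists, with the same tested genes as in WT, had 6 rises and 5 falls in all. Over all genes 5.57% rose and 4.3% fell in KO marrow. The list medians ran from -0.01 to 0.11 in KO, against 0.09 to 0.27 in WT.

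After saline no gene of the 42 passed the threshold between KO and WT. By limma 0 of 42 passed, as did 0 under the 10 other settings including voom. Over all genes 0% were higher and 0.00736% lower, the latter being Cd53 itself. An unadjusted p under 0.05 was reached by 1 of the 42, beside 511 of the 13586 genes tested. The median difference was 0.01. Xbp1 had a difference of 0.54 ± 0.19 and Hspa5 one of -0.14 ± 0.18.

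In marrow after G-CSF, 1 of the 42 genes, Dnajb9, was lower in KO than in WT, with a log2 difference of -0.96 ± 0.20 (adjusted p = 0.043), among 0.0221% of all genes that were lower and 0.125% that were higher (3 and 17 genes). The 4 KO libraries lay at 4.0 to 4.84 and the 3 WT libraries at 4.87 to 5.67, close to each other at the edge. This call was lost in 5 of 7 omissions, those of WT G-CSF replicate 1 or 3 and KO G-CSF replicate 1, 2 or 4 (adjusted p = 0.0895 to 0.197). It was also lost without a variance trend, with the compared groups alone and when rescaled to the listed genes. Over the 42 genes the median difference was -0.25 with the median of all genes close to 0, and 36 had a negative sign. An unadjusted p under 0.05 was reached by 16 of the 42, beside 1739 of the 13586 genes tested. In 9 members all KO libraries lay below all WT libraries, against 3.06% of all genes. Next to Dnajb9 the smallest adjusted p-values belonged to P4hb, at -0.46 ± 0.11 (adjusted p = 0.0768), and Hspa5, at -0.69 ± 0.18 (adjusted p = 0.136). Without KO G-CSF marrow replicate 3, 5 members were lower, Dnajb9, P4hb (adjusted p = 0.0105), Dnajb11 (0.0145), Spcs2 (0.0256) and Hspa5 (0.0457), and over all genes 244 were higher and 258 lower. Xbp1 had group means of 7.45 ± 0.09 in WT and 7.45 ± 0.16 in KO (SD, n = 3 and 4). The same 3 WT libraries stand in this comparison and in that of G-CSF with saline in WT.

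In spleen after G-CSF 0 of the 42 genes differed between KO and WT by limma, and 0 with voom. Over all genes 0% were higher and 0.0147% lower. At an unadjusted p under 0.05 stood 6 of the 42, beside 1598 of the 13586 genes tested. The median difference was -0.07. All 4 KO libraries lay below all 4 WT libraries in 6 members, against 4.87% of all genes. Ssr2 had the smallest adjusted p, at -0.33 ± 0.08 (adjusted p = 0.138), and passed with sample quality weights, a setting in which 207 genes were higher and 102 lower. Hspa5 differed by -0.18 ± 0.17, Dnajb9 by -0.31 ± 0.18 and Pdia3 by 1.46 ± 0.57.

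WT HSCs from spleen carried less RNA of the chaperone and co-chaperone genes than WT HSCs from marrow of the same treatment. Of the 42 genes 16 were lower and 0 higher in spleen, where 6.82% of all genes were lower and 6.92% higher. The median was -0.31 against 0.02 over all genes, and 33 of 42 had a negative sign. In 16 members every spleen library lay below every marrow library, against 13.8% of all genes, and in 1 above, against 14.5%. Counted by role, the 16 genes past the threshold were Sdf2l1, Creld2, Hyou1, Hspa5 and Manf among 8 lumenal chaperones and Dnajb9, Dnajc3 and Dnajb11 among 4 co-chaperones. Further ones were Pdia3 and P4hb among 6 isomerases, Derl1 and Sel1l among 7 degradation genes, and Sec61a1 and Ssr3 among 7 translocon genes. Spcs2 and Spcs3 came from the 4 of the last group. No sensor or transcription factor was among the 16. The marrow libraries are again the same 3 as in the comparison with saline, so low spleen values and high marrow values cannot be told apart in this contrast.

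Pdia3 was lower in WT spleen, with a log2 difference of -2.80 ± 0.62 (adjusted p = 0.00557) as was Sdf2l1, at -2.76 ± 0.64 (adjusted p = 0.00817); both swing widely in other groups, and the WT spleens are the group in which all 4 libraries were low. Creld2 had a difference of -1.38 ± 0.34 (adjusted p = 0.0111), Hyou1 of -0.97 ± 0.29 (adjusted p = 0.0295) and Derl1 of -0.94 ± 0.19 (adjusted p = 0.00411). Dnajb9 differed by -0.94 ± 0.20 (adjusted p = 0.00407), Sel1l by -0.80 ± 0.19 (adjusted p = 0.0095), Hspa5 by -0.78 ± 0.18 (adjusted p = 0.00862) and Dnajc3 by -0.77 ± 0.18 (adjusted p = 0.00767). The WT spleens held Dnajb9 at 4.27 to 4.5, the range of WT marrow after saline being 4.24 to 4.75, and Hspa5 at 9.92 to 10.43 against 9.58 to 10.33. For Manf the difference was -0.75 ± 0.21 (adjusted p = 0.02), for Dnajb11 -0.64 ± 0.21 (adjusted p = 0.0446), for P4hb -0.5 ± 0.11 (adjusted p = 0.00592) and for Sec61a1 -0.45 ± 0.13 (adjusted p = 0.025). Spcs3, Spcs2 and Ssr3 closed the group at -0.48 ± 0.13 (adjusted p = 0.019), -0.33 ± 0.11 (adjusted p = 0.0411) and -0.30 ± 0.09 (adjusted p = 0.0356).

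Some genes that rose with G-CSF in WT marrow did not pass between spleen and marrow. Xbp1 differed by 0.38 ± 0.19 (adjusted p = 0.186) and Pdia6 had a log2 fold change that rounds to 0 (SE 0.09). Ostc differed by -0.09 ± 0.12, Pdia4 by -0.25 ± 0.11 and Erp29 by -0.28 ± 0.10, none past the threshold. Only Derl1, Dnajb9, Pdia3 and Sdf2l1 kept their call in each of the 7 omissions. Without WT G-CSF marrow replicate 1, 4 members were lower, without its replicate 3, 10, and without WT spleen replicate 2, 9. Over all genes 271, 446 and 520 were lower in these fits instead of 927. The lost calls lay at adjusted p = 0.0505 to 0.279. In the other direction, Hsp90b1 passed without WT G-CSF marrow replicate 2 (adjusted p = 0.0385) and Dnajc10 without WT spleen replicate 3 (adjusted p = 0.0477).

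In KO mice 0 of 42 genes differed between spleen and marrow by limma, where 0.317% of all genes were lower and 0.95% higher, and 0 with voom. An unadjusted p under 0.05 was reached by 1 of the 42, beside 1546 of the 13586 genes tested. The median was -0.11, with 38 of 42 negative. Hspa5 differed by -0.27 ± 0.17, Dnajb9 by -0.29 ± 0.18 and Pdia3 by -0.44 ± 0.57.

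**Figure D4:**
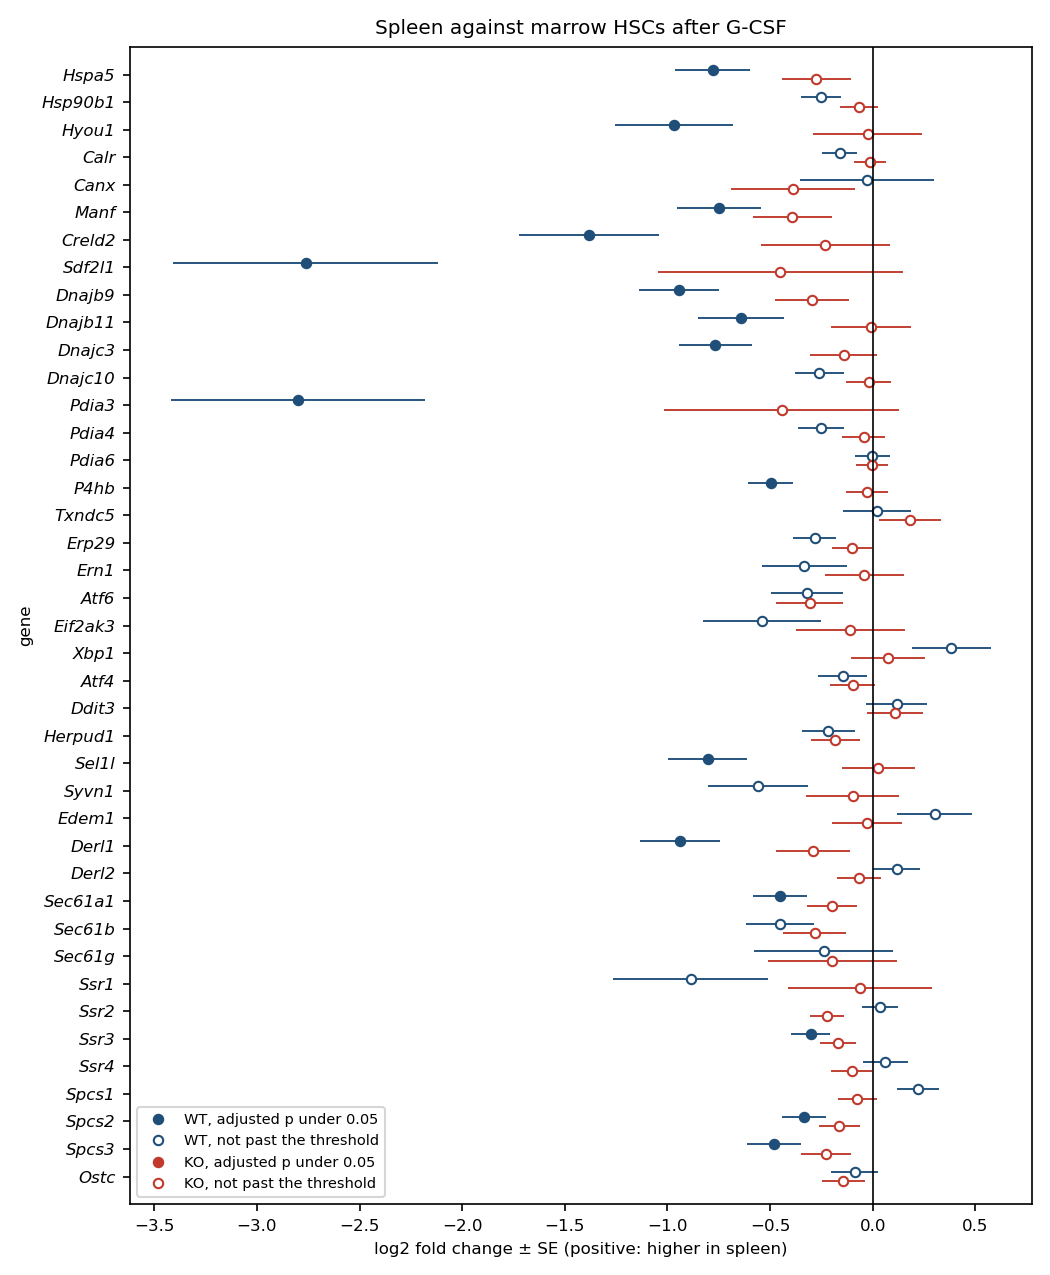
Log2 fold change ± SE of spleen against marrow after G-CSF for 41 genes (Derl3 is left out for its wide error), in WT (blue) and KO (red); filled points have an adjusted p under 0.05. Of the WT points 16 are filled, all to the left of 0, with Pdia3 at -2.80 and Sdf2l1 at -2.76 farthest out, and none of the KO points is filled.

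The difference in response between genotypes was tested directly. For G-CSF in marrow 0 of 42 members and 0 of all genes (0%) passed the interaction, with 8 members and 971 genes at an unadjusted p under 0.05. For tissue these were 0, 0 (0%), 12 and 1759. Voom gave 0 members in either. The change with G-CSF in KO minus that in WT was negative in 35 of 42 members, with a median of -0.27, which includes genes such as Ern1 whose change was negative in both genotypes, and Dnajb9 had the smallest adjusted p, at -0.99 ± 0.28 (adjusted p = 0.37), followed by P4hb at -0.48 ± 0.16 (adjusted p = 0.519). Hspa5 stood at -0.55 ± 0.26 (adjusted p = 0.697). For tissue 31 of 42 were positive, with a median of 0.18, P4hb at 0.47 ± 0.15 (adjusted p = 0.281), Sel1l at 0.83 ± 0.26 (adjusted p = 0.281) and Pdia3 at 2.36 ± 0.84 (adjusted p = 0.295). Without KO G-CSF marrow replicate 3, P4hb (adjusted p = 0.0334) and Dnajb11 (0.0493) passed the tissue interaction. In that fit 191 of all genes passed with a positive sign and 54 with a negative sign, instead of 0.

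Several members differed more between libraries of 1 group than other genes of their level. The pooled SD within groups was 0.99 for Sdf2l1 and 0.96 for Pdia3, larger than in 99.8% and 99.6% of the tested genes within 0.5 log2 units of their mean level. It was 0.59 for Ssr1, 0.51 for Creld2 and 0.5 for Canx, against medians of 0.23 over the 42 genes and 0.25 over all genes. Sdf2l1 ranged over 3.68 log2 units (12.8-fold), and its lowest libraries, WT saline replicate 1 and KO G-CSF marrow replicate 4, at 1.92 and 1.95, were also the lowest of their groups for Pdia3 and Creld2. Canx and Ssr1 had other extremes. Canx was high in KO G-CSF marrow replicates 1 and 2 (10.83 and 11.12) and low in WT spleen replicate 4 (8.63), and Ssr1 was low in WT spleen replicate 4 (8.28) and KO saline replicate 1 (8.37).

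**Figure D5:**
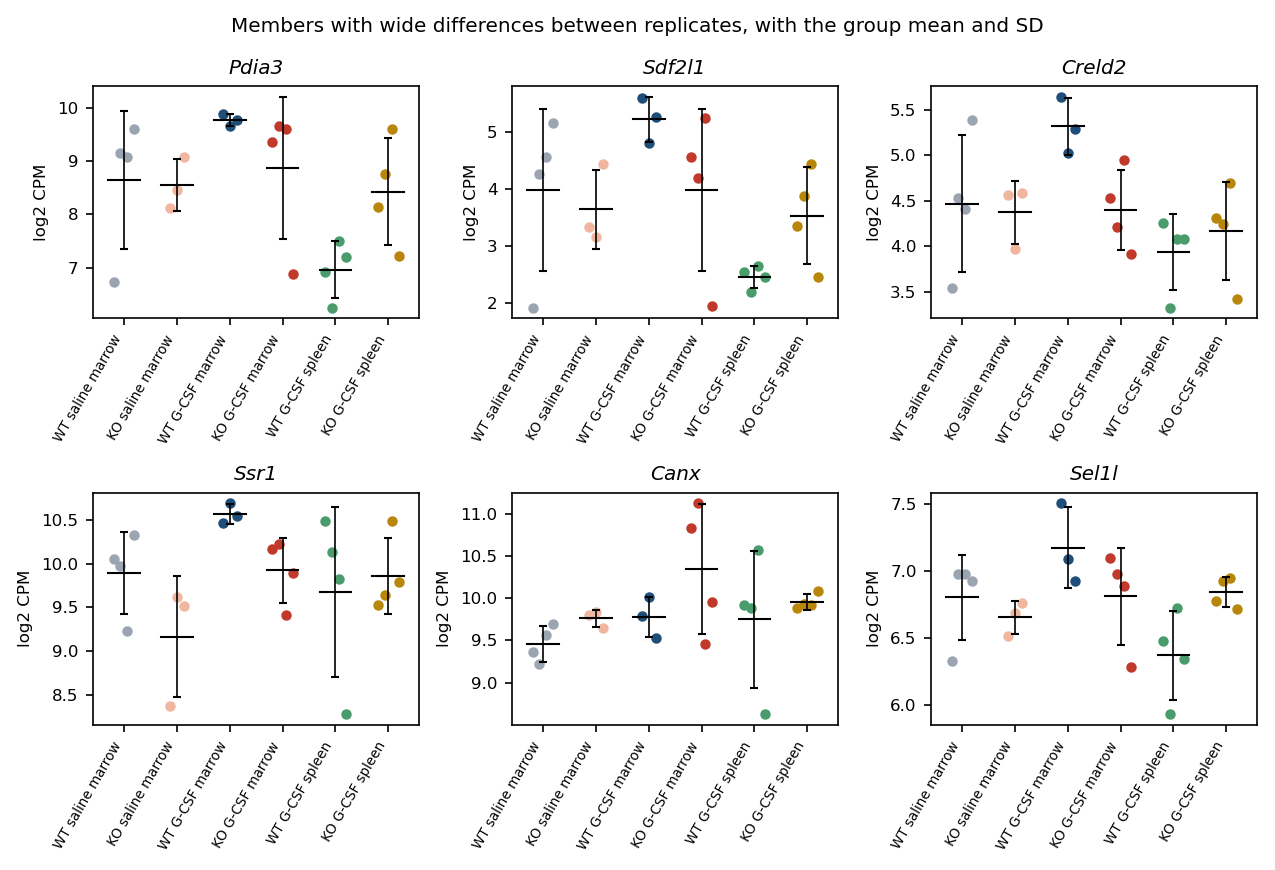
Log2 CPM of Pdia3, Sdf2l1, Creld2, Ssr1, Canx and Sel1l in every library (points), by group, with the group mean (line) and SD (bar). Pdia3 and Sdf2l1 are low in all 4 WT spleens and in WT saline replicate 1 and KO G-CSF marrow replicate 4, whose points stand far below the rest of their groups.

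Markers of other cell types moved with G-CSF in the same libraries. The summed level of 10 HSC markers was 4857 to 5216 CPM in WT saline marrow and 4230 to 4555 in WT marrow after G-CSF, with the gate gene Cd48 at a group mean of 2.07 and 3.85 log2 CPM. The 8 of 12 granulocyte and progenitor markers in the table summed to 214 to 402 CPM and 503 to 676 CPM in those groups, nearly all of it from Prtn3, while Mpo lay at a group mean of 2.55 and 0.29 log2 CPM. The 4 of 7 dendritic cell markers present summed to 133 to 215 and 293 to 321 CPM, of which Flt3 is the main part. Plasma cells are rich in ER; 6 of their 11 markers were present and summed to 11.7 to 17.6 CPM in WT saline marrow, 13.0 to 28.5 in WT and 19.0 to 38.8 in KO marrow after G-CSF, and 9.78 to 14.3 in WT spleen, with Jchain and Igkc not among the genes of the table. Of 3 lymphoid progenitor markers present, Dntt rose from a group mean of -1.70 to 3.73 log2 CPM in WT marrow, and 2 of 3 T and NK cell markers rose, Nkg7 from 6.09 to 6.93 and Klrb1c from 4.03 to 4.80. The macrophage marker Cd68 rose from 4.97 to 6.78, the erythroid Hbb-bt from 4.59 to 6.16, the stromal Pdgfrb from 3.87 to 6.09 and the mast cell gene Fcer1a from -5.57 to 0.17. The saline value of Fcer1a is close to that of a gene without a read (-5.70 for Derl3 in WT G-CSF marrow replicate 2). The size of its rise is therefore not interpreted. Of 6 megakaryocyte markers, Pf4 fell from 4.93 to 3.37, Vwf from 6.12 to 5.21 and Gp9 from 5.75 to 4.98, while Itga2b and Gp1ba rose. The HSC markers Fgd5 and Ctnnal1 fell, as did the dendritic Clec9a, and the granulocyte genes Prtn3 and Ms4a3 rose. These calls are at an adjusted p under 0.05 by limma. By group mean alone, other members of the lists with 1 named riser moved either way in WT marrow. Lower after G-CSF were Adgre1 (1.34 to -0.83), C1qb (2.69 to 1.14), C1qc, Vcam1 and Lyz2 of the macrophage list. So were Hbb-bs, Kdr, Col1a2, Emcn and the mast cell gene Gata2 (7.50 to 7.21). Higher were Csf1r, Cd14, Cd5l, Klf1, Epor, Col1a1, Cpa3 and Ms4a2. The part of these markers in the results was not tested.

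The authors' deposited table compares spleen after G-CSF with marrow after saline, and so changes tissue and treatment together. In WT it lists 11 of the 42 genes as higher and 5 as lower at an adjusted p under 0.05, beside 2377 higher and 2331 lower of 13594 genes. In the authors' deposited table Xbp1 is 1.58 log2 units higher (adjusted p = 4.85e-08), Ostc 0.47 and Pdia6 0.42, and Ern1 lies lower, at -0.63. The authors' deposited table has Hspa5 outside that list, and Pdia3 (-1.91) and Sdf2l1 (-1.64) among the genes that are lower. In KO the authors' deposited table lists Xbp1 as higher (0.70, adjusted p = 0.013) and Ern1 as lower (-0.66, adjusted p = 0.0235), beside 683 higher and 508 lower genes. For KO against WT in spleen the authors' deposited table lists 1 of the 42, Ssr2 (-0.30, adjusted p = 0.0277), beside 190 higher and 112 lower of 13594 genes, and after saline 0 of the 42 beside 0 and 1.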

How the data were processed

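RNA of sorted HSCs had been amplified with a SMARTer Ultra Low kit and sequenced, per the labels' protocols. The submitters' processing notes list mm10, limma, edgeR, Salmon 0.8.2, STAR 2.5.1a, featureCounts 1.4.6-p5 of Subread, and bcl2fastq, without their roles. The deposited values are log2 CPM per gene and library, with 0.5 reads added. All values came out as whole reads within 0.05. Of 13645 lines, 51 repeated a gene and were dropped. Another worksheet was not used. The authors' deposited table gives their log2 fold changes and adjusted p-values.

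The log2 CPM values were tested with limma 3.58.1 (R 4.3.3), which was tested on simulated data, in 1 fit over the 6 groups with a variance trend. Genes above 1 CPM in at least 3 libraries entered, and p-values were adjusted by Benjamini-Hochberg within a comparison at a threshold of 0.05. Errors of log2 fold changes are SE. Tables and figures used Python 3.11.15, pandas 2.3.3, NumPy 2.4.6, SciPy 1.17.1 and matplotlib 3.10.9.

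The members and lists were chosen with earlier results of these data known. By a fixed rule, 26 members are given in every library, 16 by range, and of each pathway list up to 3 genes past the threshold with the smallest p in WT marrow after G-CSF. The alternatives for the pathway lists were added after seeing the data. Depth limits precision through counting error only, and labels naming no separate animals mean that replicate spread may be technical.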

Additional observations from a re-analysis of the deposited data

Results flagged for a closer look

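In 5 of 104 groups of 4 libraries examined for the 26 genes given in full, 1 library stood apart from the other 3 by Dixon's test at the 95% level, where chance flags about 1 group in 20. Dnajb11 lay at 5.22 log2 CPM in WT saline marrow replicate 1, and Sel1l at 6.33 in the same library. Pdia3 lay at 6.88 in KO G-CSF marrow replicate 4. Manf lay at 5.77 in KO G-CSF spleen replicate 4. Spcs2 lay at 8.55 in KO G-CSF spleen replicate 2.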

How the results depend on the processing

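Of 4896 fold changes and medians recomputed, 168 changed sign, 0 of them past the threshold in either fit. Among them, the median of KO against WT after saline (0.01) ran from -0.04 to 0.01 over the settings and from -0.03 to 0.06 over the omissions, and that in spleen (-0.07) reached 0.0002 in 1 omission. Of 42 genes, 16 passed in WT marrow after G-CSF, and 10 with quantile normalization. The 4 of KO marrow became 0 without a variance trend, 1 with the compared groups alone, 0 when rescaled to the listed genes, 1 with quantile normalization, 2 with voom weights and 2 with the replicate block. The 1 between KO and WT marrow after G-CSF became 0 without a variance trend, 0 with the compared groups alone and 0 when rescaled. The 0 between KO and WT spleen became 1 with sample quality weights, where 207 genes were higher and 102 lower instead of 0 and 2. The causes were not tested. Leaving out 1 library gave 9 to 19 in WT marrow, 0 to 5 in KO marrow, 0 to 5 between KO and WT marrow after G-CSF, 4 to 17 between WT spleen and marrow, 0 to 2 for the tissue interaction, and 0 to 0 in the other comparisons. The labels do not say what a shared replicate number means, also between spleen and marrow, and not all residual correlations of same-numbered libraries passed 0.1, so the numbers were not taken as pairs. These correlations ran from 0.0507 to 0.141 in KO marrow (saline and G-CSF), where 6 of 6 libraries correlated best with their own number, a hint from the data; from 0.0385 to 0.0943 between WT spleen and marrow (4 of 6); and from -0.0627 to 0.153 over all comparisons. The replicate block left 16 members in WT marrow, 13 between WT spleen and marrow, and 1 between KO and WT marrow after G-CSF. Of values for named genes and pathway lists, 4799 kept their call or, for counts, stayed close to the main count. Another 22 passed only in the alternative, 147 no longer passed and 115 counts moved. Derl3 was limited by depth.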
